A study of Mus musculus with 12 samples.

Results

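Interleukin 2 (Il2), its receptor chains Il2rb and Il2rg, the transcription factors Stat5a and Stat5b and the feedback inhibitors Cish, Socs1, Socs2 and Socs3 were followed over mouse CD4+ T cells with and without Blimp1. The 9 genes were listed by name, with earlier results of these data known. Of these, 8 had a probe on the arrays, 1 probe each, and all 8 entered the tests among 12119 genes. Il2rg was not analysed here, because the probe annotation used pairs no probe with it.

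The study profiled 12 arrays in 4 groups of 3: CKO Treg, Ctrl Treg, CKO Teff and Ctrl Teff. All cells descended from naive CD4+ CD44low T cells of C57BL/6 mice aged 8 to 12 weeks that carried a Foxp3-GFP reporter and an allotype mark. Cells lacking Blimp1 (CKO) and cells with Blimp1 (Ctrl) were mixed in equal parts and injected into RAG1-/- hosts, animals without T and B lymphocytes, and 6 to 8 weeks later they were sorted as CD4+ Foxp3+ (Treg) or CD4+ Foxp3- (Teff). Both genotypes therefore grew in the same kind of host. Every sample pooled spleen, mesenteric lymph nodes and large intestine lamina propria, and every sample was stimulated for 4 hours with PMA and ionomycin, a pair of drugs that switch on protein kinase C and calcium signals without the T cell receptor. No unstimulated sample was analysed here. Neither the promoter behind the deletion of Blimp1 nor the number of mice per sample is stated by the labels. Nor do they call the replicates separate mice, so the p-values cover the spread among these arrays, which may be technical.

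IL-2 is a growth factor that activated CD4+ T cells secrete. It binds a receptor whose beta chain (Il2rb) and common gamma chain (Il2rg) carry the signal, and kinases of the JAK family attached to these chains phosphorylate STAT5A and STAT5B. STAT5 then enters the nucleus and switches on, among others, Cish and Socs genes, whose proteins bind the receptor or the kinases and damp the signal. Treg depend on IL-2 from other cells, since FOXP3 is known to hold down their own Il2 gene, and Blimp1, encoded by Prdm1, is known as a repressor of Il2 in T cells.

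Values are deposited log2 intensities, on which a difference of 1 is a 2-fold change, and the medians of the 12 arrays lay between 4.66 and 4.68. Foxp3 checked the sort. Its main probe read 8.80, 7.50 and 7.85 in CKO Treg and 8.94, 7.83 and 7.29 in Ctrl Treg, against 4.48 to 4.85 in CKO Teff and 4.42 to 4.73 in Ctrl Teff. A second Foxp3 probe overlapped, with 5.14 to 6.40 in Treg and up to 7.35 in Teff, and the other 2 read 4.38 to 5.68. The main Prdm1 probe went against the direction of the genotype label: it read 9.16, 8.47 and 9.48 in CKO Treg, against 5.19, 6.07 and 6.03 in Ctrl Treg, and 7.83, 9.0 and 7.94 in CKO Teff, against 4.64, 5.39 and 4.73 in Ctrl Teff. A second Prdm1 probe stayed between 4.27 and 4.56 on all 12 arrays. The labels do not place the main probe relative to the deleted part, so it does not check the labels, and CKO below stands for "arrays labelled CKO". The T cell markers had a mean of 9.82 to 10.48 on the arrays, over the 6 of 8 with a probe. Cd4, a marker of the sort, was the lowest of them, at 4.95 to 6.40, above the median of every array. Markers of other cells were not absent: the mean of 9 of 10 neutrophil markers ran between 6.07 and 10.22 over the arrays, and that of 6 basophil and mast cell markers between 4.93 and 9.40.

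Promoters are printed for Il2, the ligand, and for Cish, the 1 member with 2 STAT5 motifs. The letters shown in capitals are the NFAT cores of Il2 and the STAT5 motifs of Cish. RefSeq promoters (GRCm38.p6, 250 bases before to 50 after the annotated start) were at hand for 7 of the 9 members, not for Socs2 and Il2rb. The STAT5 motif searched was TTCNNNGAA, the NFAT core GGAAA, the AP-1 motif TGANTCA and the Blimp1 motif AGNGAAAG, each on both strands. The table holds 9 promoters for these 7 members, a pair each for Stat5a and Stat5b. The STAT5 motif was found in 2 of the 9 promoters, those of Cish and Socs3, while 8.30% of 32851 mouse promoters of this length hold it. The NFAT core, a short word that 61.3% of all promoters hold, was in 7 of the 9, and it overlaps the STAT5 matches of Cish. None held the AP-1 or the Blimp1 motif, which 7.81% and 8.63% of promoters hold. Such matches describe letters only and show no binding. In the Il2 promoter (chr3:37125905-37126204, minus strand, printed 5′ to 3′ along the gene) the capitals mark the 2 NFAT cores, at positions -137 and -47 from the start, and in the Cish promoter (chr9:107296409-107296708, plus strand) they mark the 2 STAT5 motifs, at positions 1 and 12.
Il2: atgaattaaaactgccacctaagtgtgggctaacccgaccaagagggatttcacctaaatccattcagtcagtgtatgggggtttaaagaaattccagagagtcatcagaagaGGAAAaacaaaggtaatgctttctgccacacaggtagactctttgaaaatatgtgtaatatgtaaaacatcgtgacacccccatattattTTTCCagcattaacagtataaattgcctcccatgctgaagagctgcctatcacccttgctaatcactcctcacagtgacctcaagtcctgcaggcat
Cish: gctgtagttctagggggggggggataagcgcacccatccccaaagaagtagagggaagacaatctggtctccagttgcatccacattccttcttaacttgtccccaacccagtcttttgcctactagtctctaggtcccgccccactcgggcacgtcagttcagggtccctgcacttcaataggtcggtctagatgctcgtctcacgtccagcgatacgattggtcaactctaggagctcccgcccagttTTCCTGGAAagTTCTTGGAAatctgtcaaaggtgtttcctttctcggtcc

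Il2 itself, the ligand (chr3:37120713-37125954 on GRCm38.p6), was lower in Treg than in Teff. In CKO Treg it read 13.07, 13.39 and 12.75, and in Ctrl Treg 13.17, 13.23 and 13.66. In CKO Teff the values were 14.59, 14.82 and 14.33, and in Ctrl Teff 14.89, 14.89 and 14.26. Every Treg array lay below every Teff array, with a gap of 0.61 between the highest Treg and the lowest Teff value. The share of all genes so separated over both genotypes was not counted. Averaged over both genotypes, Treg minus Teff was -1.42 ± 0.16 (SE, on the log2 scale; 95% interval -1.78 to -1.06), or 0.374 times the Teff level (limma, adjusted p = 0.00135). Of 12119 genes, 3.20% passed in this comparison (1.85% higher and 1.35% lower in Treg), and 2 of the 8 members did, Il2 and Socs2. At an unadjusted p under 0.05 it was 4 members, with Il2rb and Socs1, and 15.5% of genes.

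With all 12 arrays in the fit, Il2 also passed within each genotype. The difference was -1.51 ± 0.23 in CKO (limma, adjusted p = 0.0272, where 0.355% of genes passed and Il2 was the 1 member that did) and -1.33 ± 0.23 in Ctrl (limma, adjusted p = 0.0239, where 1.01% passed, with Il2 and Socs2 among them). Treg lay below Teff with no overlap for 5.58% of genes in CKO and 6.47% in Ctrl. Within 1 genotype the call depended on the fit and on single arrays. With only the 6 arrays compared it was lost in CKO (limma, adjusted p = 0.113) and in Ctrl (0.0826). In CKO it was lost without CKO Treg 1 (limma, adjusted p = 0.102), CKO Treg 3 (0.0970), CKO Teff 1 (0.0955) or CKO Teff 2 (0.101), and in Ctrl without Ctrl Treg 1 (0.105), Ctrl Treg 2 (0.120), Ctrl Teff 1 (0.121) or Ctrl Teff 2 (0.0837). The averaged difference passed without any 1 of the 12 arrays, with adjusted p between 0.00136 and 0.00599 in limma. In bulk RNA, fewer cells that make a transcript and less of it per cell cannot be told apart.

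Between arrays labelled CKO and Ctrl no difference in Il2 was detected. For Treg, CKO minus Ctrl was -0.28 ± 0.23 (95% interval -0.79 to 0.23). For Teff it was -0.10 ± 0.23 (95% interval -0.61 to 0.41), and the groups overlapped in both. The interaction, which subtracts the Teff difference between genotypes from the Treg one, was -0.18 ± 0.33 (95% interval -0.90 to 0.54). Ordered by mean, the levels were 13.07 ± 0.32 in CKO Treg, 13.35 ± 0.26 in Ctrl Treg, 14.58 ± 0.25 in CKO Teff and 14.68 ± 0.37 in Ctrl Teff (SD, n = 3 each). Neighbours of 1 cell type in that order overlapped.

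Il2 stood near the top of the scale. It was 1.43 to 2.23 log2 units below the brightest probe of its array in CKO Treg and 1.33 to 1.81 in Ctrl Treg, against 0.16 to 0.45 in CKO Teff and 0.09 to 0.72 in Ctrl Teff. On each array between 1 and 116 probes were brighter. The brightest probe read the same value, 14.98, on most arrays, every Ctrl Teff array included. Whether the brightest values were held down by the scanner or by the processing of the deposited values was not tested.

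**Figure D1:**
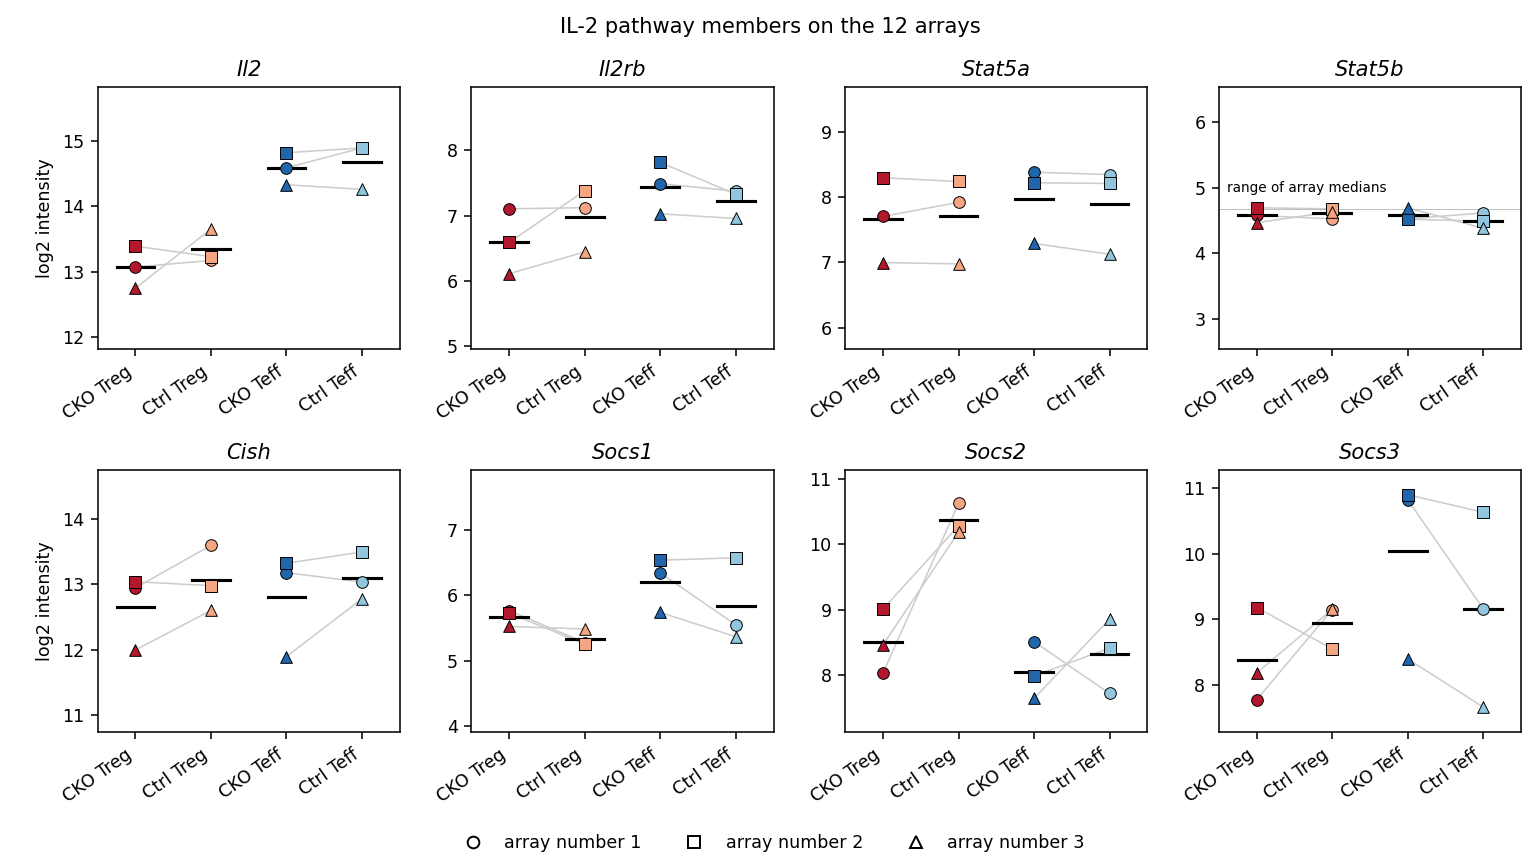
Log2 intensity (y axis, 4 units tall in every panel) of the 8 measured members on the 12 arrays, by group (x axis). Symbols give the array number, grey lines join CKO and Ctrl arrays that share a number within a cell type, and bars are group means. Il2 separates Treg from Teff, and Socs2 separates the 3 Ctrl Treg arrays, at 10.19 to 10.63, from the other 9, at 7.64 to 9.01.

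Il2rb, the signalling beta chain of the IL-2 receptor (chr15:78479256-78511621), had no difference past the threshold in any comparison. It read 7.10, 6.59 and 6.11 in CKO Treg and 7.12, 7.38 and 6.44 in Ctrl Treg. In Teff it read 7.49, 7.81 and 7.03 for CKO and 7.37, 7.33 and 6.96 for Ctrl. All 4 groups overlapped with their neighbours in the order of means, which were 6.60 ± 0.50 in CKO Treg, 6.98 ± 0.48 in Ctrl Treg, 7.44 ± 0.39 in CKO Teff and 7.22 ± 0.23 in Ctrl Teff (SD, n = 3 each). Treg minus Teff averaged -0.54 ± 0.22 (95% interval -1.02 to -0.06) and missed the threshold after adjustment (limma, adjusted p = 0.254). It was -0.84 ± 0.31 in CKO (95% interval -1.52 to -0.16, with an adjusted p of 0.335 in limma) and -0.24 ± 0.31 in Ctrl (limma, adjusted p = 0.909).

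The genotype difference of Il2rb had opposite signs in Treg and Teff, and neither passed. CKO minus Ctrl was -0.38 ± 0.31 in Treg (95% interval -1.06 to 0.30). Teff gave 0.22 ± 0.31 (95% interval -0.46 to 0.90). The interaction was -0.60 ± 0.43 (limma, adjusted p = 1.00). With the replicate number as a block it had the same size and an SE of 0.23 (limma, unadjusted p = 0.0272, adjusted p = 0.351).

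Stat5a, which carries the signal to the nucleus (chr11:100859351-100885169), showed no detected difference. It read 7.70, 8.30 and 7.0 in CKO Treg and 7.92, 8.24 and 6.98 in Ctrl Treg. In CKO Teff it read 8.38, 8.22 and 7.29, and in Ctrl Teff 8.34, 8.21 and 7.12. The arrays of a number read almost alike in both genotypes, while those numbered 3 were lowest in every group. CKO minus Ctrl was -0.05 ± 0.46 in Treg (95% interval -1.07 to 0.98) and, with similar width, 0.07 ± 0.46 in Teff (95% interval -0.96 to 1.10). The fit behind these intervals did not pair arrays by number, so their width includes the spread between numbers. Pairs of equal number differed by -0.22, 0.06 and 0.02 in Treg and by 0.04, 0.01 and 0.17 in Teff. Treg minus Teff averaged -0.24 ± 0.33 (95% interval -0.97 to 0.49; limma, adjusted p = 0.80). The means were 7.67 ± 0.65 in CKO Treg, 7.71 ± 0.66 in Ctrl Treg, 7.96 ± 0.59 in CKO Teff and 7.89 ± 0.67 in Ctrl Teff (SD, n = 3 each).

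Stat5b, its close relative on the same chromosome (chr11:100780731-100859004), lay at the level of the dim probes. It read between 4.38 and 4.69 on the 12 arrays and exceeded the median of its array on 3 of them, the fewest the filter accepts. Its differences were -0.03 ± 0.11 in Treg and 0.08 ± 0.11 in Teff for CKO minus Ctrl, and 0.06 ± 0.08 for Treg minus Teff. A level this near the median gives no measure of the transcript, so these small values say nothing about Stat5b mRNA.

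Cish, an SH2 protein that STAT5 induces and that acts back on the receptor (chr9:107296659-107302784), was bright in every group. It read 12.94, 13.04 and 11.99 in CKO Treg and 13.59, 12.98 and 12.60 in Ctrl Treg. Teff read 13.17, 13.32 and 11.89 for CKO and 13.03, 13.49 and 12.78 for Ctrl. The groups overlapped throughout. The genotype difference was -0.40 ± 0.42 for Treg (95% interval -1.33 to 0.53). For Teff it was -0.30 ± 0.42 (95% interval -1.23 to 0.63). Treg minus Teff averaged -0.09 ± 0.30 (95% interval -0.75 to 0.57; limma, adjusted p = 0.921).

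Il2rb, Stat5a and Cish shared 1 feature: in all 4 groups the array numbered 3 was the lowest. That held for 3 of the 8 members and for 5.53% of all genes (670 of 12119). The arrays numbered 1 and 2 were lowest in all groups for 3.62% and 3.71% of genes and for none of the members. The labels do not say what the number stands for.

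Socs1, an inhibitor of JAK kinases (chr16:10783808-10785536), was dim and its genotype difference was small. It read 5.77, 5.73 and 5.52 in CKO Treg, against 5.28, 5.25 and 5.48 in Ctrl Treg. In CKO Teff it read 6.34, 6.54 and 5.74, and in Ctrl Teff 5.55, 6.57 and 5.37. The Treg groups did not overlap, with CKO higher, as for 5.96% of all genes. The Treg difference was 0.33 ± 0.29 (95% interval -0.32 to 0.99) and the Teff difference 0.38 ± 0.29 (95% interval -0.28 to 1.03), neither past the threshold. Treg minus Teff averaged -0.51 ± 0.21 (95% interval -0.97 to -0.05; limma, adjusted p = 0.260). CKO Teff 1, CKO Teff 2 and Ctrl Teff 2 were the high Teff arrays. These 3 were also the highest Teff arrays in neutrophil, myeloid, and basophil and mast cell markers, whose values stand with Socs3 below. The part of these markers in the result was not tested.

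Socs2, best known as an inhibitor of growth hormone and other STAT5 signals (chr10:95383903-95417321), had the largest genotype difference among the 8 measured members. It was high in Ctrl Treg alone, where it read 10.63, 10.28 and 10.19. CKO Treg read 8.03, 9.01 and 8.46, CKO Teff 8.51, 7.99 and 7.64, and Ctrl Teff 7.72, 8.41 and 8.85. No array of another group reached the lowest Ctrl Treg value. The share of all genes with 1 group so set apart was not counted. The means were 8.50 ± 0.49 in CKO Treg, 10.37 ± 0.23 in Ctrl Treg, 8.05 ± 0.44 in CKO Teff and 8.33 ± 0.57 in Ctrl Teff (SD, n = 3 each).

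In Ctrl cells Socs2 was 4.10 times as high in Treg as in Teff, a difference of 2.04 ± 0.33 (95% interval 1.30 to 2.77; limma, adjusted p = 0.0172), with no overlap, as for 7.83% of genes in that direction. In CKO cells the difference was 0.45 ± 0.33 (95% interval -0.28 to 1.19; limma, adjusted p = 0.716). Averaged over both it was 1.25 ± 0.23, or 2.37-fold (95% interval 0.73 to 1.77; limma, adjusted p = 0.0188). The call in Ctrl was lost with only the arrays compared (limma, adjusted p = 0.0605) and without Ctrl Treg 1 (0.0840), Ctrl Treg 2 (0.0769), Ctrl Teff 1 (0.0751) or Ctrl Teff 2 (0.0560), and of the 12 arrays left out in turn, Ctrl Treg 1 ended the averaged call (0.0524).

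In Treg, every CKO array read lower for Socs2 than every Ctrl array, and whether the difference passed depended on the fit. The difference was -1.86 ± 0.33 (95% interval -2.60 to -1.13), or 0.275 times the Ctrl level, with an adjusted p of 0.107 in limma, where 12 of 12119 genes (0.099%) passed. No member passed there, and at an unadjusted p under 0.05 it was 1 member, Socs2, and 5.33% of genes. The 2 groups did not overlap, with CKO lower, as for 6.36% of all genes, and the pairs of equal number differed by -2.60, -1.27 and -1.72. With the replicate number as a block, which pairs the arrays of a cell type, the difference passed (SE 0.35; limma, adjusted p = 0.0346), as did 2.18% of all genes. The blocked call was lost without the Treg pair numbered 1 (limma, adjusted p = 0.206), 2 (0.0869) or 3 (0.164) and without the Teff pair numbered 2 (0.0507).

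In Teff the genotype difference of Socs2 was -0.28 ± 0.33 (95% interval -1.02 to 0.45), and the pairs differed by 0.79, -0.43 and -1.21, in both directions. The interaction was -1.58 ± 0.47 (95% interval -2.62 to -0.54; limma, unadjusted p = 0.00663). After adjustment over all genes it did not pass (limma, adjusted p = 1.00; 0.262 with the block), where 0.0165% of genes did; at an unadjusted p under 0.05 it was 1 member and 3.48% of genes. A difference between Treg and Teff in the response of Socs2 is not shown by the adjusted test. Averaged over Treg and Teff, CKO minus Ctrl was -1.07 (limma, adjusted p = 0.19; 0.069 with the block), no member passed where 0.116% of genes did, and at an unadjusted p under 0.05 it was Socs2 alone, with 5.50% of genes. The mean of the T cell markers was 10.12 to 10.13 in CKO Treg, against 10.15 to 10.48 in Ctrl Treg, and its part in the result was not tested.

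**Figure D2:**
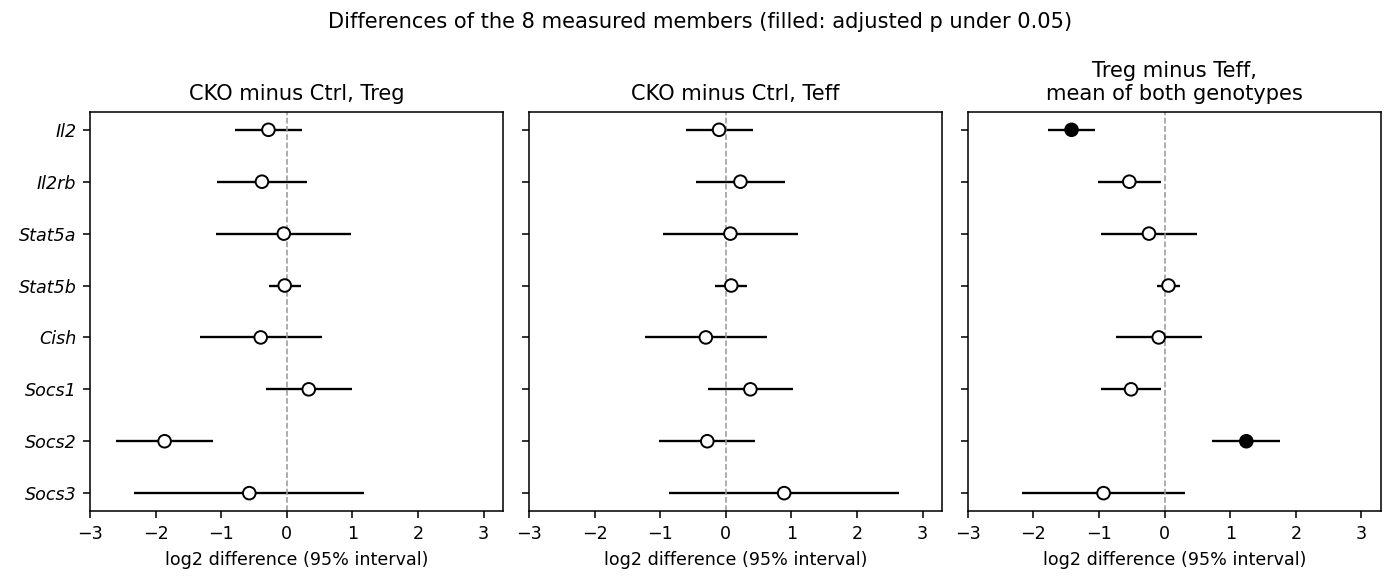
Log2 difference (x axis) of each of the 8 measured members in CKO minus Ctrl Treg, CKO minus Ctrl Teff and Treg minus Teff averaged over genotypes, with 95% intervals as lines and calls filled. In Treg minus Teff, Il2 (-1.42) and Socs2 (1.25) are filled, Socs2 in CKO minus Ctrl Treg (-1.86) lies away from 0 but open, while the intervals of Stat5a and Cish cross it in every panel.

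Socs3, the inhibitor that acts mainly on receptors of the IL-6 family (chr11:117966079-117970336), varied widely between the arrays of each Teff group, and no difference passed. In CKO Treg it read 7.77, 9.18 and 8.18, and in Ctrl Treg 9.15, 8.54 and 9.15. In CKO Teff it read 10.83, 10.90 and 8.39, and in Ctrl Teff 9.16, 10.63 and 7.66. The high Teff arrays were CKO 1, CKO 2 and Ctrl 2, and all groups overlapped. Genotypes differed by -0.57 ± 0.79 in Treg (95% interval -2.33 to 1.18). The Teff difference was 0.89 ± 0.79 (95% interval -0.87 to 2.65). Treg minus Teff was -1.66 ± 0.79 in CKO (95% interval -3.42 to 0.09; limma, adjusted p = 0.504) and -0.20 ± 0.79 in Ctrl (95% interval -1.96 to 1.56).

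The arrays with high Socs3 in Teff were also those with high neutrophil markers. Their mean over 9 markers was 8.93, 9.64 and 7.45 in CKO Teff, against 8.34, 10.22 and 6.55 in Ctrl Teff. In Treg it was 8.28, 6.07 and 8.47 for CKO, against 9.13, 6.38 and 9.05 for Ctrl. The array numbered 2 was low in these markers in both Treg groups; it was the lowest for Socs3 in Ctrl Treg and the highest in CKO Treg. Of these 9 markers 6 were above the array median on all 12 arrays. The mean of 10 myeloid and dendritic cell markers, 6 of them above the median on all arrays, was 7.08, 7.59 and 6.45 in CKO Teff, against 5.95, 7.20 and 5.51 in Ctrl Teff, again highest on CKO 1, CKO 2 and Ctrl 2. In Treg it was 6.73, 6.58 and 6.61 for CKO, against 6.92, 6.05 and 6.38 for Ctrl. The mean of 6 basophil and mast cell markers was also highest in Teff on those arrays. It was 9.40, 9.24 and 5.52 in CKO Teff, against 5.50, 6.38 and 4.93 in Ctrl Teff. In Treg it was 5.14 to 5.69. Neutrophils are known to express Socs3, and the part of any of these marker sets in the result was not tested.

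**Figure D3:**
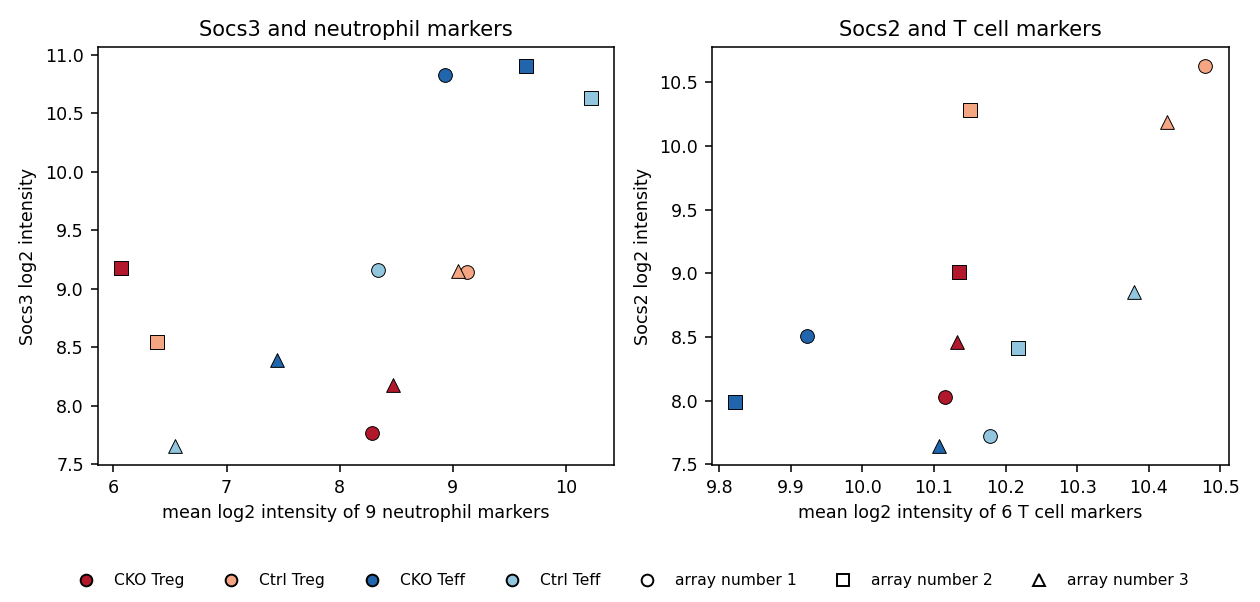
Log2 intensity of Socs2 and Socs3 (y axes) against the mean log2 intensity of the T cell and neutrophil marker lists (x axes), 1 point per array coloured by group. CKO Teff 1, CKO Teff 2 and Ctrl Teff 2 are high for both Socs3 (9.16 is the next Teff value) and the neutrophil markers.

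Genes around the members were counted in lists by role, first in Treg against Teff averaged over both genotypes.

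Cytokines of the common gamma chain and their private receptor chains, which share Il2rg, gave no call in limma among 7 tested of 10 listed, and 1 at an unadjusted p under 0.05, Il4. Their median difference was -0.08, against 0.02 over all genes. Il4, the type 2 helper cytokine, had the smallest p, with -2.06 ± 0.74 (limma, adjusted p = 0.189). It passed without CKO Teff 3 (limma, adjusted p = 0.00743) and with array weights (0.0389). It read between 8.86 and 10.99 in Treg, against 14.42, 14.04 and 9.98 in CKO Teff and 11.62, 13.17 and 10.93 in Ctrl Teff, and the mean of the 6 basophil and mast cell markers was 5.14 to 5.69 in Treg, against 9.40, 9.24 and 5.52 in CKO Teff and 5.50, 6.38 and 4.93 in Ctrl Teff. The part of those markers in the result was not tested. Il15 differed by -0.32 ± 0.26.

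Among the other JAK and STAT genes, 2 of 8 tested fell in Treg and none rose, where 3.20% of all genes passed (1.35% lower), with a median of -0.26. At an unadjusted p under 0.05 it was 3 of 8, against 15.5% of genes. Stat4, which carries the IL-12 signal, differed by -1.33 ± 0.21 (limma, adjusted p = 0.00767), and Jak2, the kinase of the IL-12 and interferon gamma receptors, by -1.41 ± 0.28 (limma, adjusted p = 0.0231). Stat4 passed without any 1 of the 12 arrays, Jak2 with 4 of the 12 left out in turn (limma, adjusted p 0.00656 to 0.0623). Stat4 read 10.58, 10.001 and 10.007 in CKO Treg and 8.82, 8.85 and 9.21 in Ctrl Treg, against 11.12, 11.32 and 10.54 in CKO Teff and 11.05, 11.25 and 10.15 in Ctrl Teff. Ctrl Treg alone stayed below all other arrays, and the share of all genes so separated was not counted. In Ctrl the difference was -1.86 ± 0.30 (limma, adjusted p = 0.0170), where 1.01% of all genes passed. The call was kept with 8 of the 12 arrays left out in turn (limma, adjusted p up to 0.0934).

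The adaptors, kinases and phosphatases below the receptor gave no call in limma among 12 tested of 16 listed, and 0 at an unadjusted p under 0.05, with a median of -0.06. Shc1, an adaptor, differed by -0.32 ± 0.16 and Inpp5d, a lipid phosphatase, by 0.37 ± 0.23. The other SOCS and PIAS inhibitors gave none among 8, and 2 at an unadjusted p under 0.05, with a median of 0.08. Socs5 came nearest (0.71 ± 0.17; limma, adjusted p = 0.0520), followed by Pias2 (0.44 ± 0.16; limma, adjusted p = 0.208).

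Of 16 tested genes known as STAT5-induced in lymphocytes, 2 fell in Treg and none rose, where 3.20% of all genes passed, with a median of -0.13. At an unadjusted p under 0.05 it was 7 of 16, against 15.5% of genes. Bcl2, a survival protein, differed by -1.48 ± 0.29 (limma, adjusted p = 0.0227), and Prf1, the pore protein of cytotoxic cells, by -2.47 ± 0.59 (limma, adjusted p = 0.0495). Both calls depended on single arrays: Bcl2 passed with 5 of the 12 left out in turn (limma, adjusted p 0.0108 to 0.0655) and Prf1 with 2 (0.00118 to 0.127). In the 10 alternatives that leave out no array, Bcl2 passed in 10 and Prf1 in 4. Prf1 read between 4.76 and 5.97 in Treg, against 8.95, 10.67 and 6.34 in CKO Teff and 7.41, 6.76 and 6.78 in Ctrl Teff. The mean of the 8 CD8 T and NK cell markers was 5.17 to 5.64 in Treg, against 6.76, 7.56 and 5.93 in CKO Teff and 5.85, 5.79 and 5.67 in Ctrl Teff, of which Cd8b1 and Klrd1 were above the array median on all 12 arrays, Klra7 and Klre1 on 11, and Cd8a and Ncr1 on none. The NK receptor gene Klrd1 read 4.74 to 5.85 in Treg, against 7.52 to 10.26 in Teff, and Cd8b1 8.45 to 10.02 over all arrays. Every other marker of this list overlapped between Treg and Ctrl Teff. Klra7 read 4.78 to 5.88 in Treg and 4.51 to 5.52 in Ctrl Teff, and Klrk1 4.45 to 5.22 and 4.52 to 4.91. The part of these markers in the result was not tested.

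Among 17 tested regulators of Il2 transcription, 1 rose and 2 fell in Treg, where 3.20% of all genes passed, with a median of -0.13. At an unadjusted p under 0.05 it was 8 of 17, against 15.5% of genes. Foxp3, the factor the sort selected on, differed by 3.43 ± 0.28 (limma, adjusted p = 0.000314). Rel, the NF-kappa B subunit that activates Il2, differed by -1.13 ± 0.24 (limma, adjusted p = 0.0341), and Nfatc1, a calcium-driven activator, by -0.54 ± 0.13 (limma, adjusted p = 0.0479). Rel (limma, adjusted p 0.0116 to 0.0828) and Nfatc1 (0.0289 to 0.126) each passed with 2 of the 12 arrays left out in turn. In the 10 alternatives that leave out no array, Rel passed in 10 and Nfatc1 in 3 (limma, adjusted p up to 0.104). Rel read 7.39, 7.21 and 6.77 in CKO Treg and 7.26, 7.48 and 7.27 in Ctrl Treg, against 8.29, 8.83 and 7.63 in CKO Teff and 8.33, 9.18 and 7.92 in Ctrl Teff. Its Treg and Teff arrays did not overlap, and the share of all genes so separated was not counted.

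**Figure D4:**
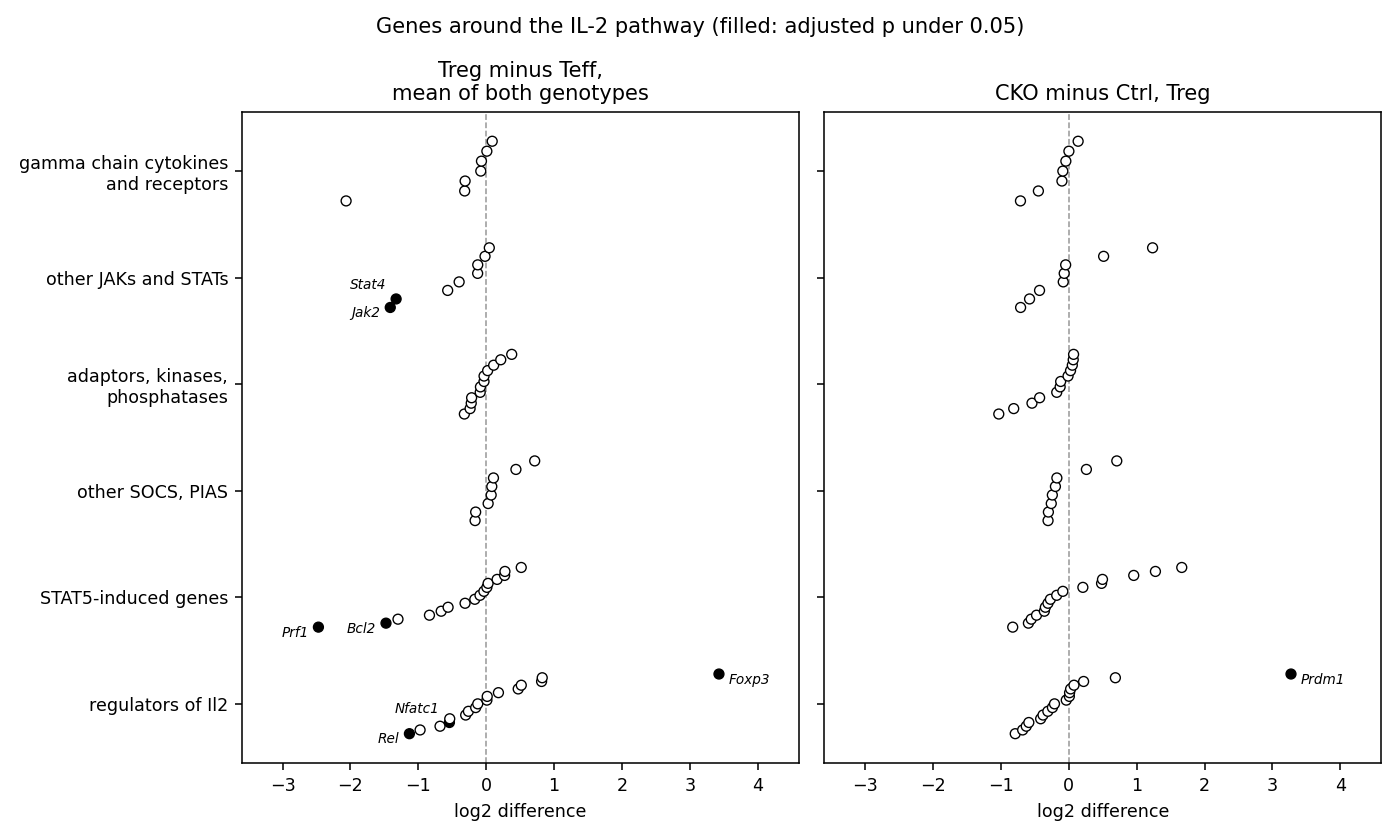
Log2 differences (x axis) of the tested genes of the 6 lists around the IL-2 pathway, Treg minus Teff averaged over genotypes (left) and CKO minus Ctrl in Treg (right), 1 point per gene. Filled points passed an adjusted p of 0.05, and Prdm1 is the 1 gene that did so on the right.

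In CKO against Ctrl Treg the 6 lists gave 1 call, Prdm1 (3.27 ± 0.38; limma, adjusted p = 0.00953; up to 0.087 with an array left out), which is the targeted gene and reads against the label. Of all genes, 0.099% passed in this comparison. At an unadjusted p under 0.05 in limma it was 5.33% of all genes. In the lists it was 0 of 7 gamma chain genes, 4 of 8 JAK and STAT genes and 3 of 12 adaptors, kinases and phosphatases. It was 1 of 8 SOCS and PIAS genes, 5 of 16 STAT5-induced genes and 2 of 17 Il2 regulators. List medians ran between -0.22 and -0.07, against 0.00 over all genes. Among the genes with the smallest p in their lists were Stat4 (1.23 ± 0.30; limma, adjusted p = 0.290), Pik3cd (-1.03 ± 0.29), the cytokine Lta (1.28 ± 0.33) and the chemokine Xcl1 (1.66 ± 0.43). With the replicate block, Stat4 (limma, adjusted p = 0.0129), Pias2 (0.0153), Lta (0.0170), Pik3cd (0.0261) and Xcl1 (0.0280) passed too, as 2.18% of all genes did. Pim1, a kinase that STAT5 induces (-0.83 ± 0.16; limma, adjusted p = 0.0397), and Satb1, a chromatin organiser (-0.79 ± 0.14; limma, adjusted p = 0.0263), also passed with the block and were picked after their values were seen. Without a same-numbered Treg pair these blocked calls were mostly lost: Stat4 and Lta lost theirs without pair 1 (limma, adjusted p = 0.0744 for Stat4 and 0.121 for Lta) and pair 2 (0.0684 and 0.104), and Pias2, Pik3cd, Xcl1, Pim1 and Satb1 without any 1 of the 3, while Pim1 also lost it without the Teff pair numbered 1 (0.0539). Lta read 9.32, 9.78 and 9.01 in CKO Treg, against 7.80, 8.16 and 8.32 in Ctrl Treg, and Xcl1 14.26, 13.38 and 14.07, against 12.05, 11.85 and 12.82.

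The remaining genes near the top of their lists in Treg were Jak3, the kinase of the common gamma chain (-0.58 ± 0.18), Inpp5d (-0.81 ± 0.33), Socs7 (-0.26 ± 0.13), Il7 (0.14 ± 0.11) and Il7r (-0.45 ± 0.56), none of which passed. In Teff, Prdm1 (3.34 ± 0.38; limma, adjusted p = 0.0235) was again the 1 call of the 6 lists, and also the 1 with the block; without the block it passed with 2 of the 12 arrays left out in turn (limma, adjusted p up to 0.169) and not with only the arrays compared (0.796). No member passed in Teff in limma, where 0.0165% of genes did, and 0 members at an unadjusted p under 0.05, with 4.17% of genes. In the lists, at that unadjusted p, it was 0 of 7 gamma chain genes, 0 of 8 JAK and STAT genes and 2 of 12 adaptors, kinases and phosphatases. It was 0 of 8 SOCS and PIAS genes, 2 of 16 STAT5-induced genes and 1 of 17 Il2 regulators. List medians ran between -0.13 and 0.39, against -0.02 over all genes. Pik3cd (-0.94 ± 0.29), Pik3r1 (0.77 ± 0.24), Xcl1 (1.00 ± 0.43), Tnfrsf4 (-0.46 ± 0.16), Il15 (0.77 ± 0.37), Jak1 (0.45 ± 0.28), Tyk2 (0.31 ± 0.19), Socs7 (-0.27 ± 0.13), Socs4 (-0.31 ± 0.23) and Il7 (-0.15 ± 0.11) had the smallest p in their lists and did not pass.

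The genes whose centred values ran closest to a member over the 12 arrays were named by their root mean square difference. For Il2, which itself spread by 0.76, they were Arap2 (0.22), Rgs1 (0.26) and Bcl2a1c (0.27), against 0.80 for the median gene. Arap2 averaged 7.52 in CKO Treg, 8.05 in Ctrl Treg, 9.21 in CKO Teff and 9.13 in Ctrl Teff. Bcl2a1c belongs to a family of near-identical copies, so its probe may read several of them. For Socs2, which spread by 0.98, they were Izumo1r (0.44), Lxn (0.44) and Tnfrsf18 (0.47), against 1.01 for the median gene. All 3 were highest in Ctrl Treg, which the choice by likeness to Socs2 favours, so this is no separate result. Izumo1r, the folate receptor 4 of Treg, averaged 4.87 in CKO Treg, 6.35 in Ctrl Treg, 4.49 in CKO Teff and 4.6 in Ctrl Teff. Tnfrsf18, the Treg surface receptor GITR, averaged 10.62, 11.84, 10.01 and 10.34 in the same order. Points of 1 cell type and genotype share the sort and the number of an array, and these are descriptions with no test.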

How the data were processed

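The authors deposited 1 log2 intensity per probe for each Illumina array, 1 array per sample. GenomeStudio and limma 3.30.11 are named in the submitters' processing notes; how background, normalization and filtering were done is not stated by the labels. The log2 scale was read from the range of the values, which were used as deposited. Of 31641 probes, 28197 had 1 gene symbol in the platform annotation, 5 had several and 3439 none, and only the first kind was used. A probe was kept when above its array's median on at least 3 of 12 arrays, which left 17579 probes and, taking the brightest per gene, 12119 genes. Each measured member had 1 probe, so no second probe could be compared. Gene positions are those of RefSeq on GRCm38.p6.

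The tests used limma (version 3.58.1, R 4.3.3; lmFit and eBayes, 2.51 prior and 10.5 total degrees of freedom), with 1 mean per group over all 12 arrays, two-sided, at a Benjamini-Hochberg adjusted p under 0.05 over all genes. Simulated data with 200 altered genes served to test the fit. The members, gene lists and marker lists were chosen with earlier results of these data known. From each list the genes past the threshold were named, at most 4, or else the 2 with the smallest p. Arrays of the same number paired CKO with Ctrl within a cell type: their deviations from the group means correlated at 0.545, 0.519 and 0.589 in Treg and 0.348, 0.733 and 0.737 in Teff. For CKO against Ctrl within Treg and within Teff the replicate block is therefore given where it changes a call. Averaged over both cell types, the block called 275 of 12119 genes. Among the list genes these included Stat4, Pik3cd, Tnfrsf4, Xcl1 and Egr1 besides Prdm1, and these averaged calls are not described further. Unless a block is named, SE and intervals come from the fit without it and include the spread between numbers. Numbers did not pair Treg with Teff in every case, so the block for that comparison stands only in the closing section. The number of arrays limits the precision.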

Additional observations from a re-analysis of the deposited data

Results flagged for a closer look

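Il2rb was flagged because every Treg pair of equal number was lower in CKO than in Ctrl and every Teff pair was higher. The share of all genes that meet this rule was not counted, so how common such a pattern is stays unknown. CKO minus Ctrl was -0.02, -0.79 and -0.33 in the 3 Treg pairs and 0.11, 0.49 and 0.07 in the 3 Teff pairs. The interaction was -0.60 (limma, adjusted p = 1.00), so the test of the difference itself did not pass.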

How the results depend on the processing

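The fall of Il2 in Treg against Teff, averaged over both genotypes, passed under all 22 alternatives, with adjusted p between 0.000181 and 0.00922 in limma. The count of members past the threshold moved as follows. In CKO against Ctrl Treg it was 0 as reported and 1, Socs2, with trend and robust eBayes, with array weights and with the replicate block within cell type. It was 0 with any 1 of the 12 arrays left out, and 0 to 1 with a same-numbered pair left out under that block, an alternative chosen after seeing the data. In Treg against Teff it fell to 0 in Ctrl and to 0 in CKO when only the arrays compared or a replicate block within genotype was used, and with 1 array left out it ranged from 0 to 2 in Ctrl, from 0 to 1 in CKO and from 1 to 2 in the average, which gave 1 with the block. Differences far from any call turned sign: Socs2 in Teff to 0.14 with array weights and, with the early and the late arrays in accession order as blocks, an alternative chosen after seeing the data, Socs3 in Ctrl Treg against Teff to 0.14 and Cish in the averaged comparison to 0.17. With 1 array left out, CKO minus Ctrl in Treg ranged from -0.41 to 0.29 for Stat5a and -0.090 to 0.024 for Stat5b, and in Teff from -0.31 to 0.023 for Il2, -0.31 to 0.41 for Stat5a and -0.57 to 0.15 for Cish. It kept its sign for Il2 in Treg (-0.44 to -0.12), Stat5b in Teff (0.027 to 0.14) and Socs2 in Teff (-0.59 to -0.019). With a same-numbered pair left out under the block it ranged in Treg from -0.50 to 0.031 for Il2, -0.098 to 0.039 for Stat5a and -0.074 to 0.034 for Stat5b, and in Teff from -0.030 to 0.17 for Stat5b and -0.82 to 0.18 for Socs2. With 1 array left out, Treg minus Teff ranged from -0.95 to 0.54 for Socs3 in Ctrl and from -0.32 to 0.075 for Cish in the average. Numbers did not pair Treg with Teff in every case (correlations of deviations 0.325, 0.0413 and 0.312 in CKO, 0.0916, -0.266 and 0.265 in Ctrl). With the block within genotype, limma's adjusted p was 0.0640 in CKO and 0.0553 in Ctrl for Il2, and 0.0700 in Ctrl and 0.0560 averaged for Socs2. The replicate block within cell type changed no other member's genotype call. The genes past the threshold numbered 12 in CKO against Ctrl Treg (5 to 318 over the alternatives), 2 in Teff (0 to 123) and 14 averaged (6 to 275), 123 in Treg against Teff in Ctrl (29 to 247), 43 in CKO (4 to 259) and 388 averaged (212 to 775), and 2 for the interaction (0 to 22). The cause of these changes was not tested.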
